A study of Homo sapiens with 38 samples.

Results

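The genes described here are some of the feedback brakes of MAP kinase signalling that the array measured. They are the dual-specificity phosphatases DUSP1, DUSP4, DUSP5, DUSP6, DUSP8, DUSP10 and DUSP16, and the Sprouty proteins SPRY2 and SPRY4. They were taken by name, as probe sets whose single gene symbol in the platform annotation is one of these. The rule uses no threshold on their values, but the list of names was drawn up with earlier results of these data known. All 9 were measured, each by 1 probe set, among 11893 distinct genes and 14488 probe sets in all. The cells were A549, an established line of human lung adenocarcinoma that is often used as a model of alveolar epithelium. RNA was measured on 38 Affymetrix arrays in 2 arms, control and ORMDL3 knockdown by a pool of siRNAs, at 0, 2, 4, 8 and 10 h of interleukin 1 beta (IL1B). The design asks how the response to this inflammatory cytokine runs over time and whether it differs when ORMDL3, an endoplasmic reticulum protein that regulates sphingolipid synthesis, is reduced.

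Every group shared the cell line, 48 h of silencing, 24 h without serum and, after 0 h, 1 ng/ml IL1B. The sources used here do not give the transfection of the control cells. Each group held 4 arrays, except control at 8 h and knockdown at 0 h with 3 each. Nothing in the labels ties replicates to separate cultures, and a p-value therefore reflects the spread among these arrays alone, some of which may be technical. No later hour had an untreated array, so IL1B and further time in culture cannot be told apart, and IL1B responses below are differences from 0 h. RNA came from whole wells, in which fewer cells expressing a gene and less RNA per cell cannot be told apart.

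MAP kinases are active only while a threonine and a tyrosine of their activation loop carry phosphate, and dual-specificity phosphatases switch them off by removing both. DUSP1, DUSP4 and DUSP5 are nuclear and inducible, DUSP5 and the cytoplasmic DUSP6 act mainly on ERK, and DUSP8, DUSP10 and DUSP16 act mainly on JNK and p38, the stress kinases that IL1B activates. Sprouty proteins restrain the path from receptor tyrosine kinases through Ras to ERK. Many of these genes are themselves induced by MAP kinase signalling, which makes them negative feedback loops.

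The promoters of the members that rose most, DUSP10 and DUSP16, are shown, with those of DUSP1 and DUSP8, the pair that held a complete cAMP response element. This pair was chosen for these letters, and all 9 members were called at 2 h in control cells below. Whether the element has a part in the response was not tested. Sequences are from RefSeq on GRCh38.p14, which held 7 of the 9 members (not DUSP4 or DUSP5). Each is the 250 bases before the most upstream annotated start, read 5′ to 3′ on the gene's strand. Capitals mark matches, on either strand, to the letters searched. The cAMP response element, bound by factors of the CREB family, was searched as TGACGTCA, and its shorter core, which also stands alone in many promoters, was searched as TGACG. The site of AP-1, the factor built from FOS and JUN proteins, was searched as TGANTCA. The TATA box, which positions the start of transcription in some promoters, was searched as TATAAA. The NF-kB site and the CArG box were searched by name.
DUSP1, chr5:172771196-172771445, minus strand: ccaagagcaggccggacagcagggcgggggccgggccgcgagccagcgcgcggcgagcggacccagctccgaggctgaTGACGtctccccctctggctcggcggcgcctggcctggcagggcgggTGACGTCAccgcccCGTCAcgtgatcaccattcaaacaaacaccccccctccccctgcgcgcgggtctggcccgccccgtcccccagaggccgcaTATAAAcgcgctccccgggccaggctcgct
DUSP8, chr11:1572272-1572521, minus strand: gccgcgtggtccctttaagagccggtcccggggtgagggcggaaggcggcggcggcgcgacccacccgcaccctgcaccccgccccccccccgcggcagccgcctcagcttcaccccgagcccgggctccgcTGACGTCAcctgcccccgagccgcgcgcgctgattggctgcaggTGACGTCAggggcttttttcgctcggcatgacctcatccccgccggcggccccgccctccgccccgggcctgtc
DUSP10, chr1:221742090-221742339, minus strand: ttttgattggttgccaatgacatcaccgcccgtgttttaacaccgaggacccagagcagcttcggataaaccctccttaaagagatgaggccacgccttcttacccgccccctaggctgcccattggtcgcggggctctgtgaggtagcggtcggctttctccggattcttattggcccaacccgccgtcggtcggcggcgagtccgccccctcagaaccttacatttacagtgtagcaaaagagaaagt
DUSP16, chr12:12562864-12563113, minus strand: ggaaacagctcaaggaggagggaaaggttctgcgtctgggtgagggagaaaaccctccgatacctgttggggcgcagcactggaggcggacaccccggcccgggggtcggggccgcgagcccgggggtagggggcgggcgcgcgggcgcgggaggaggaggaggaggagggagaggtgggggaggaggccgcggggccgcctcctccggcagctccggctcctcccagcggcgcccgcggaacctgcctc
The DUSP1 window held 1 complete cAMP response element, 125 to 118 bases before the start, and a TATA box 30 to 25 bases before it. The DUSP8 window held 2 complete elements, 118 to 111 and 74 to 67 bases before the start. Of 27324 RefSeq windows of the same length, 1.75% held this element and 11.2% held the TATA box letters. The shorter core, which the complete element contains, stood in the windows of DUSP1, DUSP8, SPRY2 and SPRY4 and in 21.6% of all windows. None of the 7 member windows held the AP-1, NF-kB or CArG letters, which stood in 6.57%, 9.6% and 1.15% of all windows. A match of letters is not a measured binding site, and the absence of one says only that these letters are not in this window.

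Levels are given as log2 values per probe set, so a difference of 1 is a 2-fold change. Levels of different probe sets were not compared, except for a place within the array where one is given. Differences are means ± the standard error (SE) of limma's linear model. A gene is called where the limma p, adjusted by Benjamini-Hochberg over all 14488 probe sets, is under 0.05. The targeted gene ORMDL3 lay between 6.78 and 7.77 in the 19 control arrays and between 5.00 and 5.57 in the 19 knockdown arrays, a mean difference of -1.99 ± 0.05 (adjusted p = 4.62e-25). The response genes TNFAIP3 and NFKBIA rose by 4.43 ± 0.07 and 1.49 ± 0.06 after 2 h in control cells. The keratins KRT8 (12.48 to 13.41) and KRT18 (12.10 to 12.80), markers of epithelium, were high on all arrays. Of the same list, KRT7 lay between 12.06 and 12.76, CDH1 between 9.07 and 10.63 and KRT19 between 8.30 and 9.93. EPCAM lay between 6.10 and 7.45, below every array median. All 6 epithelial markers fell under IL1B in control cells (median -0.33 over the mean of 4 hours), their mean level lying between 10.91 and 11.01 at 0 h and between 10.13 and 10.31 at 10 h, and their part in the results was not tested. Of the other markers, CD14, CD79A and COL1A1 were not called, LAMP3 ranged from 5.16 to 8.44, ABCA3 from 8.93 to 9.75 and CDH5 rose by 1.13. The lists had 2 of 6 alveolar type II, 2 of 5 leukocyte, 1 of 5 fibroblast and 1 of 4 endothelial markers measured. SFTPC, NKX2-1 and PTPRC were among those without a probe set of that single symbol. Median array levels lay between 8.02 and 8.19.

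IL1B in control cells moved all 9 genes at 2 h: DUSP1, DUSP5, DUSP6, DUSP8, DUSP10, DUSP16 and SPRY4 rose, and DUSP4 and SPRY2 fell. Over all probe sets, 20% were called at this hour, 10.3% higher and 9.77% lower. The median of the 9 changes was 1.15, beside -0.03 over all probe sets. The early rise was led by the JNK and p38 phosphatases, DUSP10 (3.96-fold), DUSP16 (3.40-fold) and DUSP8 (2.54-fold), followed by the ERK phosphatase DUSP6 (2.41-fold). At 4 h, 5 genes rose and 1 fell, where 37.9% of all probe sets were called, 17% higher and 20.9% lower. At 8 h, 5 rose and none fell (34.3%, with 16.4% higher and 17.9% lower), and at 10 h 6 rose and none fell (34.7%, with 17.7% higher and 17% lower). Given how the names were chosen, these counts describe the genes and are no test of them as a group.

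**Figure D1:**
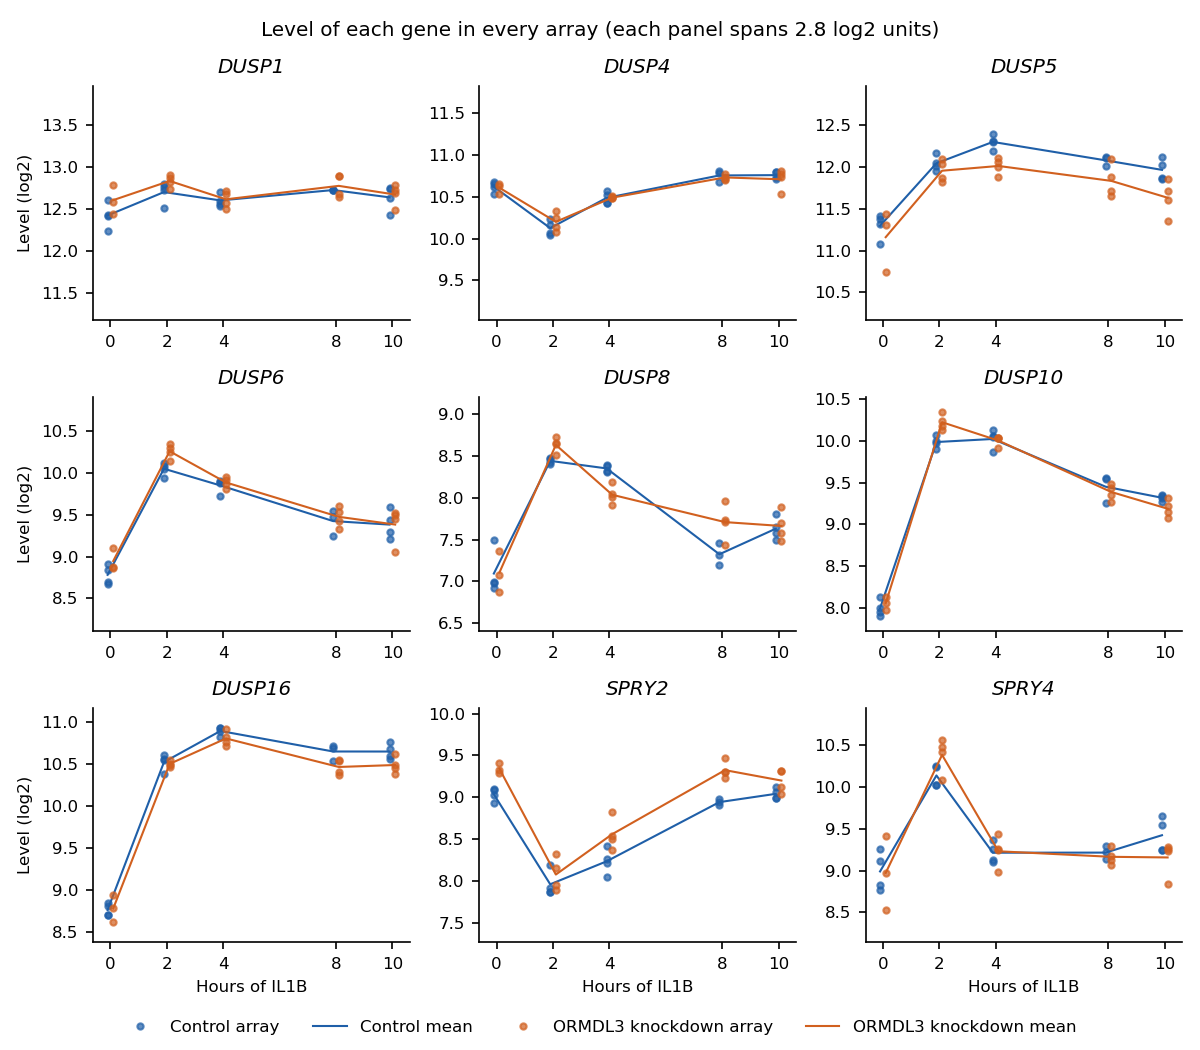
Log2 level of the 9 genes (1 panel each, spanning 2.8 log2 units) against hours of IL1B, with points for single arrays and lines for group means, control and ORMDL3 knockdown in separate colours. DUSP10 and DUSP16 stay above their 0 h arrays at every later hour, DUSP4 and SPRY2 dip at 2 h and return, and SPRY4 has a peak at 2 h.

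Among the JNK and p38 phosphatases, DUSP10 was at 8.01, 8.13, 7.95 and 7.91 in the 4 control arrays at 0 h and at 10.07, 9.99, 9.98 and 9.90 at 2 h. At 4 h it was at 9.86, 10.12, 10.06 and 10.04, at 8 h at 9.26, 9.55 and 9.54, and at 10 h at 9.33, 9.35, 9.32 and 9.27. Every treated array lay above every 0 h array, and the highest group means stood at 2 and 4 h. The rises over 0 h were 1.99 ± 0.07 at 2 h (adjusted p = 7.6e-22), 2.02 ± 0.07 at 4 h, 1.45 ± 0.08 at 8 h and 1.32 ± 0.07 at 10 h. Between 4 and 8 h DUSP10 fell by 0.57 (SE 0.08, adjusted p = 5.36e-07).

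DUSP16, a large phosphatase that shuttles between nucleus and cytoplasm and acts on JNK and p38, was at 8.84, 8.81, 8.70 and 8.69 at 0 h in control cells. It was at 10.55, 10.61, 10.56 and 10.38 at 2 h and at 10.90, 10.93, 10.82 and 10.93 at 4 h. At 8 h it was at 10.72, 10.69 and 10.54, and at 10 h at 10.68, 10.77, 10.60 and 10.56. The 0 h arrays stood apart from all later arrays, and DUSP16 had gained most of its rise by 2 h and stayed high to 10 h. It rose by 1.77 ± 0.07 at 2 h (adjusted p = 1.1e-20), by 2.14 ± 0.07 at 4 h (4.40-fold, adjusted p = 4.33e-23) and by 1.89 ± 0.07 at both 8 and 10 h. It was still 0.37 ± 0.07 higher at 4 h than at 2 h (adjusted p = 0.000187) and 0.24 ± 0.07 lower at 8 h than at 4 h (adjusted p = 0.0155), a call lost without control array 3 at 8 h (-0.19, adjusted p = 0.129).

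DUSP8 was at 6.92, 7.50, 6.98 and 6.99 at 0 h, where the second array stood high. It was at 8.47, 8.43, 8.40 and 8.47 at 2 h and at 8.31, 8.39, 8.33 and 8.38 at 4 h, apart from the 0 h arrays at both hours. At 8 h it was at 7.31, 7.46 and 7.20 and at 10 h at 7.81, 7.58, 7.49 and 7.65, which overlapped the range at 0 h. The change was 1.35 ± 0.11 at 2 h (adjusted p = 7.94e-12), 1.26 ± 0.11 at 4 h, 0.23 ± 0.12 at 8 h, which was not called (adjusted p = 0.141), and 0.54 ± 0.11 at 10 h (adjusted p = 0.000233). Without the second control array at 0 h, the change at 8 h was 0.36 and was called (adjusted p = 0.0118). From 4 to 8 h DUSP8 fell by 1.03 (SE 0.12, adjusted p = 4.81e-08).

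The ERK phosphatases rose as well. DUSP6 was at 8.70, 8.84, 8.92 and 8.67 at 0 h and at 10.09, 10.05, 10.12 and 9.94 at 2 h. It was at 9.90, 9.89, 9.88 and 9.73 at 4 h, at 9.25, 9.55 and 9.48 at 8 h and at 9.44, 9.59, 9.29 and 9.21 at 10 h, and no treated array overlapped 0 h. The rise was 1.27 ± 0.09 at 2 h (adjusted p = 2.84e-13) and 1.07 ± 0.09 at 4 h, and 0.64 ± 0.10 and 0.60 ± 0.09 at 8 and 10 h. DUSP6 fell by 0.43 (SE 0.10) from 4 to 8 h (adjusted p = 0.00157).

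DUSP5, the nuclear ERK phosphatase, was at 11.38, 11.41, 11.32 and 11.07 at 0 h, at 12.17, 12.04, 12.01 and 11.96 at 2 h and at 12.39, 12.19, 12.30 and 12.31 at 4 h. It was at 12.01, 12.11 and 12.11 at 8 h and at 12.11, 12.02, 11.86 and 11.86 at 10 h. All treated arrays lay above 0 h, with the highest mean at 4 h. It rose by 0.75 ± 0.11 at 2 h, 1.00 ± 0.11 at 4 h (adjusted p = 7.94e-09), 0.78 ± 0.12 at 8 h and 0.67 ± 0.11 at 10 h. No step between neighbouring hours was called for DUSP5 in control cells.

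The nuclear phosphatases of broader range moved less at the hours measured, of which 2 h was the first after 0 h. DUSP1 lay between percentiles 98.6 and 99.5 of the probe sets of each array, near the top of the scale. Whether this limits its changes was not tested. DUSP1, which acts on p38, JNK and ERK, was at 12.61, 12.42, 12.43 and 12.24 at 0 h, at 12.80, 12.73, 12.76 and 12.52 at 2 h and at 12.71, 12.54, 12.60 and 12.57 at 4 h. It was at 12.72, 12.73 and 12.73 at 8 h and at 12.75, 12.75, 12.63 and 12.43 at 10 h. The 8 h arrays lay above all 0 h arrays, and those of the other hours overlapped them. It rose by 0.28 ± 0.09 at 2 h (adjusted p = 0.0179) and 0.30 ± 0.09 at 8 h (adjusted p = 0.0108). Its changes at 4 and 10 h, 0.18 ± 0.09 and 0.22 ± 0.09, were not called (adjusted p = 0.103 and 0.0503). At 10 h the value lay at the threshold, and DUSP1 was called there with quantile normalization (adjusted p = 0.0494), array weights (0.0482), a robust variance trend (0.0348) or the filter at the median level (0.0389). At 2 h it was not called with only the compared groups fitted (adjusted p = 0.0682). Without the fourth control array at 0 h, the mean over the 4 hours went from 0.24 ± 0.07 (adjusted p = 0.00462) to 0.18 (adjusted p = 0.0553), and the calls at 2 and 8 h were lost (adjusted p = 0.0948 and 0.0541). The call at 2 h was also lost without array 1 or array 3 at 2 h (adjusted p = 0.0656 and 0.0545), and without control array 1 at 0 h the changes at 4 and 10 h were called (0.24 and 0.28, adjusted p = 0.037 and 0.0174).

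DUSP4, which acts on ERK and JNK, was at 10.68, 10.62, 10.53 and 10.66 at 0 h and at 10.07, 10.24, 10.16 and 10.04 at 2 h, with no overlap. It was at 10.42, 10.52, 10.43 and 10.57 at 4 h, at 10.68, 10.80 and 10.78 at 8 h and at 10.74, 10.79, 10.71 and 10.79 at 10 h. DUSP4 fell by 0.49 (SE 0.06) at 2 h (adjusted p = 6.05e-08). It then rose by 0.36 ± 0.06 from 2 to 4 h (adjusted p = 4.63e-05) and by 0.27 from 4 to 8 h (adjusted p = 0.00249). Its differences from 0 h at 4, 8 and 10 h, -0.13 ± 0.06, 0.13 ± 0.07 and 0.14 ± 0.06, were not called (adjusted p = 0.0805, 0.112 and 0.0754). The arrays at 4 h overlapped 0 h. Those at 8 and 10 h lay above all 0 h arrays, at 8 h narrowly (lowest 10.679, beside a highest of 10.676 at 0 h). At 4 h DUSP4 was called with quantile normalization (adjusted p = 0.00507) or array weights (0.0372). The same held without control array 3 at 0 h (adjusted p = 0.049) or array 4 at 4 h (0.0487). At 10 h it was called with array weights (adjusted p = 0.0379).

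The Sprouty genes moved in opposite directions at 2 h. SPRY2, which acts between growth factor receptors and Ras, was at 9.10, 9.03, 8.93 and 9.09 at 0 h and at 7.87, 7.92, 7.86 and 8.18 at 2 h. At 4 h it was at 8.21, 8.26, 8.04 and 8.42, at 8 h at 8.91, 8.97 and 8.94, and at 10 h at 9.06, 8.99, 9.00 and 9.12. The arrays at 2 and 4 h lay below all 0 h arrays, and those at 8 and 10 h overlapped them. SPRY2 fell by 1.08 (SE 0.09) at 2 h (adjusted p = 2.75e-11) and by 0.80 (SE 0.09) at 4 h (adjusted p = 1.24e-08). Its differences at 8 and 10 h, -0.09 ± 0.10 and 0.01 ± 0.09, were not called. The return was called in both steps, 0.27 ± 0.09 from 2 to 4 h (adjusted p = 0.0465) and 0.71 ± 0.10 from 4 to 8 h (adjusted p = 1.83e-06). The first step was near the threshold: leaving out control array 4 at 4 h gave 0.21 (adjusted p = 0.18), and leaving out any of several arrays of other groups also ended the call.

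SPRY4, a relative of SPRY2 that also inhibits the path to ERK, was at 9.11, 9.25, 8.76 and 8.83 at 0 h and at 10.25, 10.24, 10.02 and 10.03 at 2 h. It was at 9.36, 9.11, 9.26 and 9.13 at 4 h, at 9.13, 9.22 and 9.29 at 8 h and at 9.66, 9.24, 9.55 and 9.24 at 10 h. The 2 h arrays stood apart from the 0 h arrays and those of the later hours overlapped them. SPRY4 rose by 1.15 ± 0.14 at 2 h (adjusted p = 5.57e-08) and fell by 0.92 (SE 0.14) from 2 to 4 h (adjusted p = 9.56e-06). Its differences from 0 h at 4 and 8 h were 0.22 ± 0.14 and 0.22 ± 0.15 (adjusted p = 0.22 and 0.265). At 10 h it rose by 0.43 ± 0.14 (adjusted p = 0.0145), a call lost without control array 3 at 0 h (adjusted p = 0.0683), array 4 at 0 h (0.0503) or array 1 at 10 h (0.0683).

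Between neighbouring hours in control cells, 3 genes rose and 1 fell from 2 to 4 h (13.4% of all probe sets called), and 2 rose and 4 fell from 4 to 8 h (21.1%). From 8 to 10 h no gene was called by limma (2.88% of all probe sets). DUSP8 alone had an unadjusted p under 0.05, a threshold at which the share of all probe sets was not computed.

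**Figure D2:**
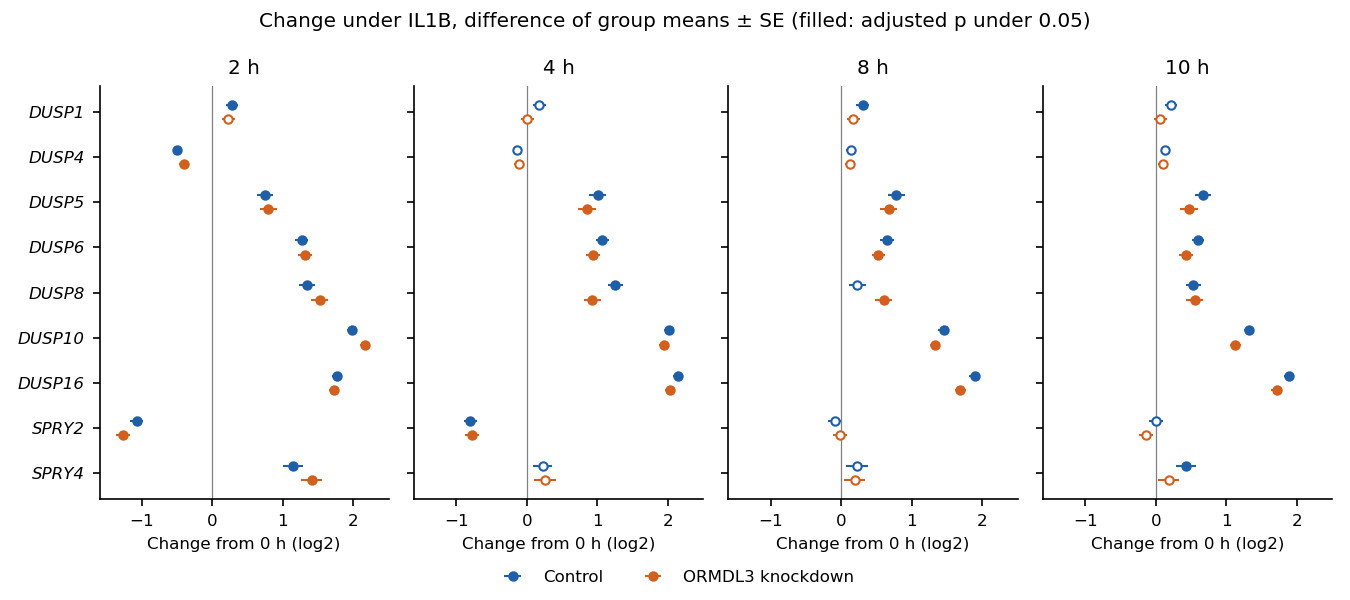
Change from 0 h on the log2 scale (horizontal axis) for the 9 genes at 2, 4, 8 and 10 h, as difference of group means ± SE, with filled points where the adjusted p is under 0.05. Control cells and knockdown cells are in separate colours. DUSP10 and DUSP16 have the largest rises at 2 h in both arms, and the SPRY2 fall at 2 and 4 h is gone at 8 h.

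The response in ORMDL3 knockdown cells was measured against their own 3 arrays at 0 h. At 2 h, 6 genes rose and 2 fell, where 23.4% of all probe sets were called, 9.57% higher and 13.8% lower. At 4 h, 5 rose and 1 fell (30.1%, with 12.6% higher and 17.5% lower). At 8 h, 5 rose and none fell (28.9%, with 11.2% higher and 17.7% lower), as at 10 h (25.5%, with 11.6% higher and 13.8% lower). Over the mean of the 4 hours, 6 rose and 1, SPRY2, fell (31.1%, with 12.1% higher and 19% lower). DUSP10 rose by 2.16 ± 0.08, DUSP16 by 1.73 ± 0.07, DUSP8 by 1.52 ± 0.12, SPRY4 by 1.41 ± 0.15, DUSP6 by 1.31 ± 0.10 and DUSP5 by 0.79 ± 0.12 at 2 h. SPRY2 fell by 1.26 (SE 0.10) and DUSP4 by 0.41 (SE 0.07). DUSP1 was not called at any hour in this arm (0.23 at 2 h, adjusted p = 0.0735), although without knockdown array 1 at 0 h it was called at 2 h (0.32, adjusted p = 0.0265). With each array centred on its median or with array weights it was called at 2 h (adjusted p = 0.0226 and 0.0197) and at 8 h (adjusted p = 0.0481 and 0.0343).

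In single arrays of the knockdown arm, DUSP10 was at 8.13, 8.06 and 7.97 at 0 h, at 10.24, 10.18, 10.34 and 10.13 at 2 h and at 9.15, 9.31, 9.22 and 9.07 at 10 h. DUSP16 was at 8.78, 8.94 and 8.61 at 0 h, at 10.72, 10.83, 10.92 and 10.76 at 4 h and at 10.62, 10.49, 10.46 and 10.39 at 10 h. For both genes every later array lay above the 0 h arrays. DUSP6 was at 9.10, 8.87 and 8.87 at 0 h, at 10.25, 10.29, 10.34 and 10.15 at 2 h and at 9.53, 9.45, 9.50 and 9.05 at 10 h, where the last array overlapped 0 h. DUSP8 was at 6.88, 7.08 and 7.36 at 0 h and at 8.73, 8.65, 8.64 and 8.51 at 2 h, with no overlap.

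SPRY4 was at 9.41, 8.98 and 8.53 at 0 h, a wide spread, at 10.56, 10.47, 10.41 and 10.08 at 2 h and at 9.43, 8.98, 9.24 and 9.26 at 4 h. The 2 h arrays stood apart and the 4 h arrays overlapped 0 h. DUSP4 was at 10.63, 10.66 and 10.54 at 0 h and at 10.14, 10.25, 10.33 and 10.08 at 2 h, below all 0 h arrays. It was at 10.49, 10.51, 10.48 and 10.48 at 4 h and at 10.71, 10.74, 10.78 and 10.70 at 8 h. The 8 h arrays lay above all 0 h arrays, though the change was not called.

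The later course in knockdown cells ran as follows. DUSP16 was still 1.71 higher at 10 h (adjusted p = 7.05e-19) and DUSP10 1.13 higher (adjusted p = 9.41e-14). SPRY2 was not called at 8 or 10 h (-0.02 and -0.14, adjusted p = 0.936 and 0.354). DUSP5 at 10 h rose by 0.47 ± 0.12 (adjusted p = 0.00428). Without the fourth knockdown array at 0 h (10.74, beside 11.44 and 11.30), that change was 0.26 (adjusted p = 0.11). SPRY4 over the mean of the 4 hours was 0.51 ± 0.12 higher (adjusted p = 0.0016), and without the same array 0.29 higher (adjusted p = 0.0977). Without knockdown array 1 at 0 h, SPRY4 was called at 4 and 8 h too (0.48 and 0.41, adjusted p = 0.0189 and 0.0481).

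Neighbouring hours in knockdown cells gave 3 rises and 4 falls from 2 to 4 h (14.6% of all probe sets called) and 2 rises and 4 falls from 4 to 8 h (22.5%). SPRY4 fell by 1.15 (SE 0.14) and DUSP8 by 0.60 (SE 0.11) from 2 to 4 h, while SPRY2 rose by 0.48 ± 0.09. From 4 to 8 h SPRY2 rose by a further 0.76 ± 0.09. The fall of DUSP10 from 2 to 4 h (-0.22, adjusted p = 0.0308) was lost without knockdown array 1 or 3 at 2 h or array 1 at 4 h (adjusted p 0.0687 to 0.116). The fall of DUSP8 from 4 to 8 h (-0.33, adjusted p = 0.0304) was lost without array 2 or 4 at 4 h or array 2 or 3 at 8 h (adjusted p 0.0543 to 0.164). From 8 to 10 h limma called none of the 9 (2.33% of all probe sets). There was 1 at an unadjusted p under 0.05, where the share of all probe sets was not computed.

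Knockdown and control were then compared at each hour. No member was called at 0, 4 or 10 h, and 1 was higher at 2 h (DUSP10) and 1 at 8 h (SPRY2). The shares of all probe sets called were 3.31% at 0 h, 6.18% at 2 h, 1.84% at 4 h, 2.88% at 8 h and 2.28% at 10 h. At an unadjusted p under 0.05, limma gave 1, 2, 3, 3 and 2 members at the 5 hours in order. The share of all probe sets at that unadjusted threshold was not computed. These counts therefore cannot be set against the shares above and are no result about the members. Over the mean of the 5 hours SPRY2 was higher and DUSP5 and DUSP16 were lower in knockdown cells, 3 of 9 where 23% of all probe sets were called.

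SPRY2 in knockdown cells was at 9.32, 9.29 and 9.41 at 0 h, above the control arrays given above. It was at 8.15, 7.89, 7.95 and 8.32 at 2 h and at 8.37, 8.54, 8.51 and 8.82 at 4 h, both overlapping control. It was at 9.23, 9.30, 9.30 and 9.47 at 8 h, above all control arrays, and at 9.12, 9.04, 9.32 and 9.31 at 10 h. The difference from control was 0.30 ± 0.10 at 0 h (adjusted p = 0.0994), 0.12 at 2 h, 0.32 ± 0.09 at 4 h (adjusted p = 0.0694), 0.38 ± 0.10 at 8 h (adjusted p = 0.0316) and 0.16 at 10 h. The mean over the 5 hours was 0.26 ± 0.04 (adjusted p = 3.32e-05), and the group mean was higher at 5 of 5 hours. The call at 8 h was lost in 8 of the fits with arrays left out (adjusted p 0.0514 to 0.201), among them those without any 1 of the control arrays at 8 h or without knockdown array 3 or 4. At 4 h the difference was called without control array 4 (0.39, adjusted p = 0.0255) or knockdown array 1 (0.39, adjusted p = 0.0348) of that hour. With array weights SPRY2 was called at 0 h (adjusted p = 0.0197) and at 4 h (adjusted p = 0.0228), and with the filter at the median level at 4 h (adjusted p = 0.0447).

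DUSP5 in knockdown cells was at 11.44, 11.30 and 10.74 at 0 h, at 12.04, 12.10, 11.87 and 11.82 at 2 h and at 12.06, 12.11, 11.88 and 12.00 at 4 h. It was at 12.09, 11.87, 11.72 and 11.65 at 8 h and at 11.85, 11.72, 11.60 and 11.36 at 10 h. At 4 and 10 h these arrays lay below all control arrays, and at the other hours the arms overlapped. The differences from control at 4 and 10 h were -0.29 ± 0.11 and -0.33 ± 0.11 (adjusted p = 0.25 and 0.135), and the mean over the 5 hours was -0.22 ± 0.05 (adjusted p = 0.00253). Without replicate 3 of every group this mean was -0.20 (adjusted p = 0.0535). With the replicate number as a fixed block in the limma fit, the differences at 4 and 10 h were called (adjusted p = 0.0328 and 0.0116). With it as a random block, only that at 10 h was (adjusted p = 0.0339), and the last section gives the rule for these blocks.

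DUSP10 in knockdown cells at 2 h was at 10.24, 10.18, 10.34 and 10.13, above all 4 control arrays at that hour. The difference was 0.24 ± 0.07 (adjusted p = 0.0392), and it was lost in 10 of the fits with arrays left out (0.19 to 0.26, adjusted p 0.0553 to 0.264), among them those without control array 2, 3 or 4 or knockdown array 1, 2 or 3 at 2 h. At the other hours its difference lay between -0.13 and 0.06. DUSP16 was lower by a small amount over the mean of the 5 hours, -0.09 ± 0.03 (adjusted p = 0.0427), a call lost in 26 of the fits with arrays left out (adjusted p 0.0517 to 0.238).

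For the other members no difference between the arms was called at any hour or over the mean. DUSP8 differed by -0.32 ± 0.11 at 4 h (adjusted p = 0.17), where its knockdown arrays at 7.91, 8.04, 8.00 and 8.19 lay below all control arrays. It differed by 0.38 ± 0.12 at 8 h (adjusted p = 0.0763), where its arrays at 7.96, 7.71, 7.43 and 7.74 overlapped control. Without control array 2 at 0 h or knockdown array 3 at 8 h, this difference was called (0.38 and 0.48, adjusted p = 0.0392 and 0.0272), as it was with each array centred (adjusted p = 0.0473) or with array weights (adjusted p = 0.0203). DUSP6 differed by 0.21 ± 0.09 at 2 h (adjusted p = 0.165) and by 0.09 ± 0.04 over the mean (adjusted p = 0.117), which without knockdown array 4 at 10 h was 0.11 and called (adjusted p = 0.0264). The mean differences were 0.08 ± 0.04 for DUSP1, 0.00 ± 0.03 in size for DUSP4 and -0.01 ± 0.06 for SPRY4.

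**Figure D3:**
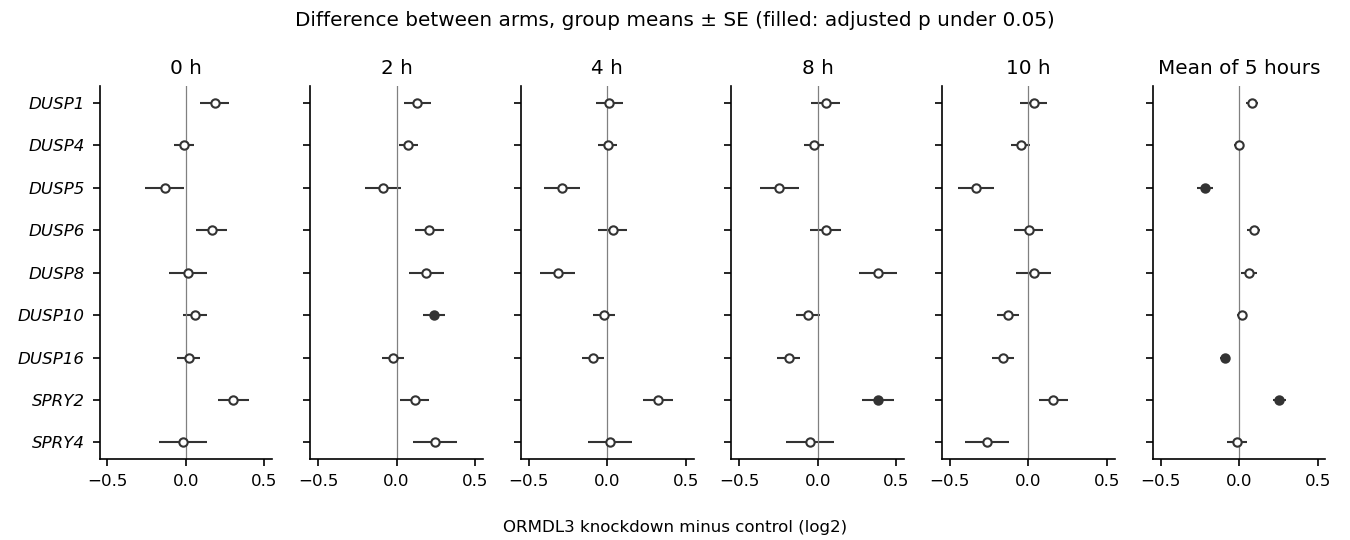
Difference between the arms, ORMDL3 knockdown minus control on the log2 scale, for the 9 genes, in 1 panel per hour and 1 for the mean of 5 hours, as difference of group means ± SE, with filled points where the adjusted p is under 0.05. SPRY2 lies to the right of 0 at every hour and DUSP5 to the left, and no difference is over 0.38 in size.

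Whether the IL1B response itself differed between the arms was tested as the response in knockdown minus the response in control. Limma called 0 of the 9 genes at any of the 4 hours or in their mean, where 0.0276%, 0.069%, 0.228% and 0.0828% of all probe sets were called at 2, 4, 8 and 10 h and 0.235% in the mean. At an unadjusted p under 0.05, where the share of all probe sets was not computed, there was 1 member, DUSP8 at 8 h. The DUSP8 response was 0.33 lower in knockdown at 4 h (difference -0.33 ± 0.16, adjusted p = 0.909) and 0.37 ± 0.17 higher at 8 h (adjusted p = 0.434). SPRY4 at 2 h gave 0.26 ± 0.21. In limma's joint F test of the response at all hours, the adjusted p was 0.26 for DUSP8, 0.403 for DUSP10 and between 0.74 and 0.941 for the other 7. A p that misses the threshold does not show that the responses were equal.

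The members' time courses were set beside each other over the 10 group means, as a description, since the points share arrays, arms and hours. DUSP6 followed DUSP8 and DUSP10 most closely (Pearson r = 0.96 with each), and DUSP5 followed DUSP16 (r = 0.93). DUSP4 and SPRY2, which dipped at 2 h, ran together (r = 0.89), and SPRY2 ran against DUSP8 (r = -0.87) and SPRY4 (r = -0.78).

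Among 5148 other probe sets whose group means spanned at least 0.5, those most like DUSP10 were SLC25A37 and TNFAIP2 (r = 0.99 each over 10 group means). Those most like DUSP16 were CCL22 and SOD2 (r = 0.99 each), a chemokine and the mitochondrial superoxide dismutase. DUSP6 was most like BIRC2 (r = 0.99) and TBC1D10A (r = 0.98), DUSP5 most like SPX (r = 0.99) and IRAK3 (r = 0.98), and DUSP8 most like CTTNBP2NL (r = 0.98) and KDM6B (r = 0.97). SPRY2 was most like ASB8 and ARID5B (r = 0.98 each), DUSP4 most like ZNF703 and FRAT1 (r = 0.98 each), and SPRY4 most like BCL6 (r = 0.98) and CDC42EP4 (r = 0.97). DUSP1, whose group means spanned 0.41, had the loosest match, PRDM1 (r = 0.94) and PHLDA1 (r = 0.93).

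The rest of the pathway was taken from lists of names and compared on the mean of the 4 hours in control cells, where 39.3% of all probe sets were called (18.1% higher and 21.2% lower) and the median change was -0.02. By this measure 7 of the 9 members rose and 1 fell, with a median of 0.80. Members and lists were named with earlier results of these data known, so their medians side by side are a description and no test. Of 9 other dual-specificity phosphatases measured, 3 rose (DUSP22 by 0.26, DUSP3 by 0.22 and DUSP14 by 0.21) and 1 fell (DUSP19, -0.36), with a median of -0.01. A mean over hours hides moves in opposite directions. DUSP7, named after its values were seen, changed by -0.82 at 2 h (adjusted p = 3.07e-06) and by 0.51 and 0.62 at 8 and 10 h. DUSP14 rose by 0.57 at 2 h and 0.54 at 4 h and was not called at 8 or 10 h. Of 9 other receptor brakes, 3 rose, the ubiquitin ligase CBL by 0.44, LRIG1 by 0.42 and SPRED1 by 0.32. A further 2 fell, SPRY1 (-0.27) and SPRED2 (-0.21, adjusted p = 0.0498).

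Of the 8 MAP kinases measured, 2 rose, the JNK gene MAPK8 by 0.77 ± 0.07 and MAPK6 by 0.59, and 1 fell, the p38 gene MAPK12 (-0.40). Of 18 kinases upstream, 10 rose and 3 fell, with a median of 0.25. The activators of p38 moved apart, as MAP2K3 rose by 1.33 ± 0.05 and MAP2K6 fell by 1.27 (SE 0.08). MAP3K8, which feeds the ERK path in inflammatory signalling, rose by 1.05 ± 0.07 and MAP2K2 by 0.49. Of 10 kinases downstream, 2 rose (RPS6KA2 by 0.61 and MKNK1 by 0.15) and 4 fell, MKNK2 (-0.39), MAPKAPK3 (-0.32) and RPS6KA4 (-0.24) most.

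Of 15 transcripts known to respond to ERK, 4 rose and 7 fell, with a median of 0.06. LIF rose by 0.87, FOSL1 by 0.76 and MCL1 by 0.39, while FOS fell by 1.33 (SE 0.13), ETV1 by 1.20 (SE 0.06) and EPHA4 by 0.40. Of 12 growth factor receptors and ligands, 4 rose and 4 fell. The ligands EREG, HBEGF and NRG1 rose by 1.36, 1.11 and 0.78, and the receptors ERBB3, ERBB2 and FGFR3 fell by 0.73, 0.50 and 0.46. The receptor EGFR, named after its value was seen, was the remaining gene to rise, by 0.53 ± 0.08 (adjusted p = 3.88e-06). Of 6 binders of AU-rich elements in messenger RNA, ZFP36 rose by 0.67 ± 0.16 and ZFP36L2 fell by 0.25.

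**Figure D4:**
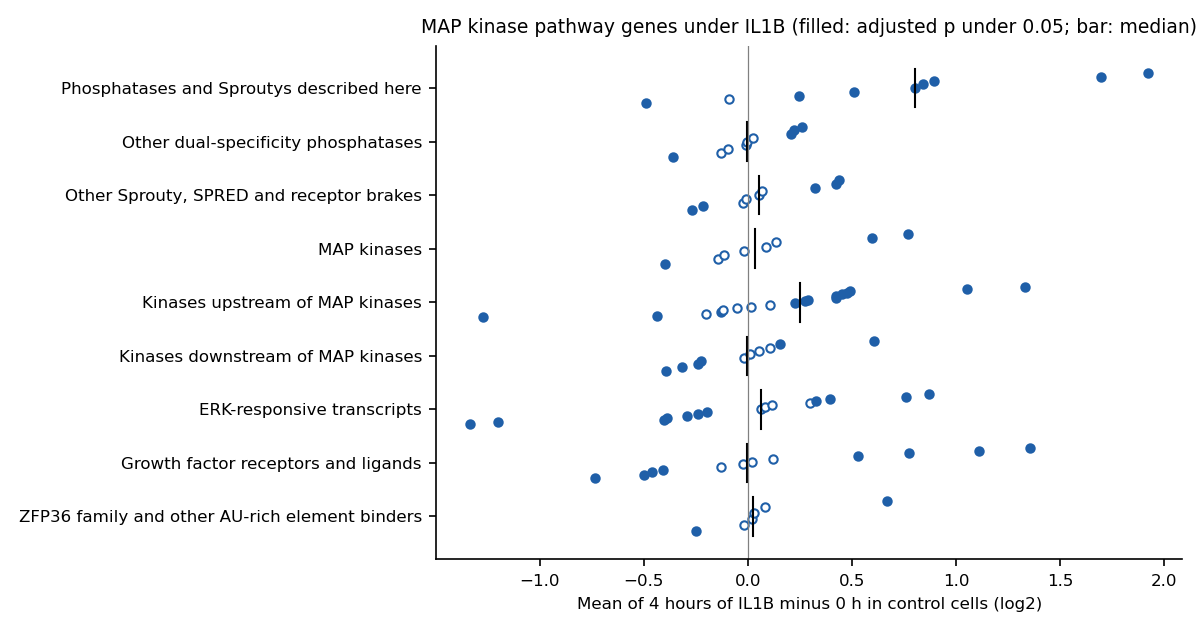
Change over the mean of 4 hours of IL1B in control cells on the log2 scale (horizontal axis), 1 point per gene, for the 9 members and the 8 lists of MAP kinase pathway genes, with filled points where the adjusted p is under 0.05 and a bar at each median. The median of the members is 0.80 and those of the lists lie between -0.01 and 0.25. Members and lists were named with earlier results known, so the medians are no test.

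Over the mean of the 5 hours in knockdown against control, where 23% of all probe sets were called, 7 of the 15 ERK-responsive transcripts were higher and 1 lower, with a median of 0.14 beside -0.01 over all probe sets. ETV1 was 0.38 and EPHA2 0.27 higher, and LIF differed by -0.13. Of the 9 other dual-specificity phosphatases, 1 was higher (DUSP3, 0.19), and of the 9 other brakes 2 were (SPRED1, 0.16, and IL17RD, 0.10). At 2 h alone, where 6.18% of all probe sets were called, DUSP7 was 0.49 ± 0.12 higher in knockdown cells (adjusted p = 0.0149). DUSP7 was not called at the other hours or over the mean. Of the kinases, MAP3K1 was 0.24 and RPS6KA5 0.35 higher and MAP3K8 differed by -0.20. Of the growth factor genes, NRG1 was 0.31 and EREG 0.19 higher, and FGFR1 and BTC differed by -0.17 and -0.16. By single hours, RPS6KA5, EREG and SPRED1 were called at 0 h alone, where 3.31% of all probe sets were called. They were then 0.63, 0.56 and 0.43 higher (adjusted p = 0.0162, 0.00111 and 0.000311). For none of the 8 lists did limma call a gene in the difference of responses over the mean of 4 hours.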

How the data were processed

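RNA of A549 cells was measured on Affymetrix arrays, and the authors deposited log2 levels per probe set. Affymetrix Power Tools, RMA, limma 3.22.7 and hg19 appear in the submitters' processing notes, without roles. The choice of the 14488 probe sets is not described in the sources used here. No further normalization was applied and no detection values were used, so the number of arrays limits the precision. Genes were named through the platform annotation (12132 probe sets with 1 symbol, 628 with several, 1728 with none), 12121 of them matched to RefSeq by Entrez identifier.

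Limma 3.58.1 in R 4.3.3 fitted 1 mean for each of 10 groups to all 38 arrays, with p-values adjusted by Benjamini-Hochberg over all probe sets for each contrast. All comparisons with 0 h in an arm use the same 0 h arrays, so no overlap between them is given. The fit was tested on simulated data. The members and lists were chosen with earlier results of these data known. Genes named are the members, ORMDL3, TNFAIP3 and NFKBIA. Also named are up to 3 called genes per list and direction with the largest IL1B change (2 for knockdown). Per member, the 2 probe sets of highest correlation are named too. Cell markers, DUSP7 and EGFR were named after their values were seen. Alternatives were other normalizations, array weights, a robust variance trend, a filter at the median level, fits on the compared groups alone, replicate number as a block, and leaving out arrays.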

Additional observations from a re-analysis of the deposited data

Results flagged for a closer look

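In 5 of 72 sets of 4 values (9 genes in 8 groups of 4 arrays), 1 array lay far from the other 3. Its gap to the nearest was over 0.829 of the range of the set. Chance gives about 1 in 20 among independent sets, but these 72 share arrays. DUSP6 was lowest in control replicate 4 at 4 h (9.73, nearest 9.88) and in knockdown replicate 4 at 10 h (9.05, nearest 9.45). SPRY4 was lowest in the same knockdown array at 10 h (8.84, nearest 9.24). DUSP8 was highest in control replicate 2 at 0 h (7.50, nearest 6.99), the array that decides its call at 8 h. DUSP10 was lowest in knockdown replicate 1 at 4 h (9.91, nearest 10.03).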

How the results depend on the processing

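Of 243 results (9 genes in 27 contrasts), 200 kept their call in every one of the 50 alternatives that measured the gene. DUSP8 was absent from the fit with the filter at the median level. No result that was called in either fit reversed direction. Direction was not compared where a result was uncalled in both fits. Counts of called genes that moved by more than 1.5 times belonged to knockdown against control, save 1, and smaller moves stood elsewhere, such as 6 to 8 in control cells at 10 h and 5 to 4 or 7 in knockdown cells at 8 h. In knockdown against control at 0 h the count of 0 became 1 (SPRY2) with array weights and with the replicate number as a fixed or random block. At 2 h the count of 1 became 0 with only the compared groups fitted. At 4 h the count of 0 became 1 with array weights, 1 with the filter at the median level, 2 with the fixed block and 1 with the random block. At 8 h the count of 1 became 2 with each array centred, 2 with array weights and 0 with only the compared groups. At 10 h the count of 0 became 1 (DUSP5) with the fixed and with the random block. Over the mean of 5 hours the count of 3 became 5 with either block (DUSP1 and DUSP6 added). From 8 to 10 h in control cells the count of 0 became 1 (DUSP8) with array weights. With arrays left out, the counts ranged from 0 to 1 at 2 h, 0 to 1 at 4 h and 0 to 2 at 8 h. The cause was not tested.

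DUSP16 over the mean of 5 hours was not called with quantile normalization (adjusted p = 0.0657), array centring (0.0554) or array weights (0.127). DUSP4 in control cells was called with quantile normalization at 4 h (-0.20, adjusted p = 0.00507) and over the mean of 4 hours (-0.15, adjusted p = 0.00964). Replicate numbers were to count as a pairing only if every same-number pair of arrays correlated above 0.1 in its deviations from the group means. This held in 107 of 162 pairs (median 0.18, beside -0.06 for different numbers), and 28 of 38 arrays correlated best with their own number, which hints at a shared effect of the numbers without meeting that rule. With the number as a fixed or a random block, SPRY2 was called in knockdown against control at 0 h (adjusted p = 0.0193 and 0.036) and 4 h (0.00307 and 0.0113) and DUSP5 at 10 h (0.0116 and 0.0339), and DUSP5 at 4 h with the fixed block alone (0.0328). Under IL1B both blocks called DUSP1 in control cells at 4 h (0.0109 and 0.0339) and 10 h (0.00274 and 0.0117) and in knockdown cells at 2 h (0.00521 and 0.0192), and the fixed block called it there at 8 h (0.0317). The random block alone called DUSP4 in control cells at 10 h (adjusted p = 0.0489). The filter at the median level dropped DUSP8 and kept 8 members. Signal over background could not be assessed without detection values.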
